A study of Mus musculus with 16 samples.

Results

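The peaks described here lie in a block of chromosome 9 that holds the matrix metalloproteinase (Mmp) cluster and Yap1. A peak belonged to the block when its start and end fell between 7150000 and 8300000 of the mouse build mm10. The members were chosen by measured values, namely the positions of the called peaks. The bounds held 707 of the 106385 deposited peaks, with 65, 74, 100 and 108 peaks in control libraries 1 to 4 and 108, 62, 99 and 91 in dnTCF4 libraries 1 to 4. H3K27me3, the trimethyl mark on lysine 27 of histone H3, was mapped by chromatin immunoprecipitation in CCN6KOT cells, mouse breast tumour cells labelled spindle metaplastic and named for the loss of CCN6, which both groups share. Control cells carried a control lentivirus (PPGS in the labels) and the others a lentivirus with dnTCF4, a dominant negative construct against beta-catenin signalling. All cells went through puromycin selection. The labels give 4 H3K27me3 libraries per group from a single cell line without naming separate cultures, so a p-value measures only the spread between libraries, which may be technical. Peak lists give no expression, so the labelled cell type could not be checked against its markers.

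H3K27me3 is written by EZH2, the catalytic subunit of Polycomb repressive complex PRC2, and is found over genes that a cell type keeps silent. The Mmp genes encode secreted proteases that cut extracellular matrix and are used in tissue remodelling and tumour invasion. Next to them lie Birc2 and Birc3, which encode inhibitors of apoptosis, and Yap1, which encodes the transcriptional coactivator restrained by the Hippo pathway. The segment with Birc2, Birc3 and Yap1 is known from other studies as a recurrently amplified region of mouse tumours.

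Of the 18 protein-coding genes whose span reaches into the block, 10 are Mmp genes and 8 are others. The RefSeq table (GRCm38.p6) gave a start for all 18. The 250 bases before the start are printed for Mmp7, Mmp8 and Cep126, whose starts had a peak within 2 kb in every library, and for Mmp13, Birc3 and Yap1, which had none there in any library. Each runs 5′ to 3′ on the gene's strand, and capitals mark CG dinucleotides and the AP-1 motif TGAGTCA or its reverse complement TGACTCA.

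Mmp7, chr9:7691840-7692089, plus strand: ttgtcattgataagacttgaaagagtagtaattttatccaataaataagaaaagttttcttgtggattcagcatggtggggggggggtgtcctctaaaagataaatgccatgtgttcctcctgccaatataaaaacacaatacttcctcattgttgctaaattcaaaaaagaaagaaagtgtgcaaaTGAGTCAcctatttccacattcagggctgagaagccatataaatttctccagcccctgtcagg
Mmp8, chr9:7558179-7558428, plus strand: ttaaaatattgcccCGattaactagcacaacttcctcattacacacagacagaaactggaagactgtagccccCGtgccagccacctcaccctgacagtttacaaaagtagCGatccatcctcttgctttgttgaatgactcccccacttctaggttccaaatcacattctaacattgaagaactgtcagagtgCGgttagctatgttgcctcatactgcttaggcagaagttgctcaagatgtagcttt
Cep126, chr9:8134447-8134696, minus strand: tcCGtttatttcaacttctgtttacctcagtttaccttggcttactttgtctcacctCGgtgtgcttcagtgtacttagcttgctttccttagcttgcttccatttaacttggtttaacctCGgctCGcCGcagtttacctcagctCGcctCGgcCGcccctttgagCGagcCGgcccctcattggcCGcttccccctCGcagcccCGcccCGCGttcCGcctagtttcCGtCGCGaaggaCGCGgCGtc
Mmp13, chr9:7272264-7272513, plus strand: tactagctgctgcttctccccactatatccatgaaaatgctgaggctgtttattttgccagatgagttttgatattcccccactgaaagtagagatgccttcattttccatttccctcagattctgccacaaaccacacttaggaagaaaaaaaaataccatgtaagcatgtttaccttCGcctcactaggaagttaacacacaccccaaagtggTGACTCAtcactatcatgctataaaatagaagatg
Birc3, chr9:7873171-7873420, minus strand: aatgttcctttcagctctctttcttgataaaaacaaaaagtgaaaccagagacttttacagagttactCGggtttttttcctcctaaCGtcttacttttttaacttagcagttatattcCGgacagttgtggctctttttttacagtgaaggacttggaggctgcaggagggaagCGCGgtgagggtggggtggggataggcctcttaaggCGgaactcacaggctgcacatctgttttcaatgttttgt
Yap1, chr9:8004597-8004846, minus strand: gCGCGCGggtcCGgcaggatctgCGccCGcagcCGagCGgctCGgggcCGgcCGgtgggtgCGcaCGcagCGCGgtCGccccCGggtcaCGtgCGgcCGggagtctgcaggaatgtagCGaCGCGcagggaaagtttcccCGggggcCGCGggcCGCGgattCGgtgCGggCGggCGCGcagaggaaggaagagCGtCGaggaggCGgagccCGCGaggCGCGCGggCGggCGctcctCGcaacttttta

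The promoters of the Mmp genes were poor in CG and those of their neighbours varied. Over these 250 bases the 10 Mmp promoters held 0 to 4 CG (median 0.5), and the other 8 held 4 to 44 (median 11). The median over 17274 promoters of protein-coding genes was 10, and 37.2% of them held at most 5. The motif TGAGTCA, which binds AP-1 and was searched on both strands, stood in 6 of 10 Mmp promoters (Mmp13, Mmp1b, Mmp3, Mmp1a, Mmp10 and Mmp7) and in 0 of the other 8, against 4.01% of all promoters. The TCF/LEF motifs CTTTGAT and CTTTGAA, which do not overlap AP-1, stood in 0 Mmp promoters and in 2.93% and 4.29% of all promoters. CTTTGAT was found at Birc2 and CTTTGAA at Dcun1d5. Peaks lay within 2 kb of the starts of genes of both kinds in every library. Mmp7 had 0 CG, Mmp8 had 4 and Cep126 had 22, while Yap1, with 44, and Birc3, with 6, had no peak there. Of Mmp7, Mmp8 and Cep126, only Mmp7 had a peak across the start itself in every library.

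The mark was laid out in 2 covered parts around the Birc and Yap1 genes. The covered bases ran from 7283822 to 8231118 over all libraries, a span of 947 kb, of which 340 kb lay under a peak of at least 1 library and 607 kb under none. Coverage was densest from Mmp8 to the gap before Tmem123. Between the end of Mmp20 and the end of Mmp7, peaks covered 32.4% to 69.2% of bases (median 56.1% over 8 libraries), and between Mmp7 and Tmem123 38.7% to 71.0% (median 58.1%). From Mmp13 to Mmp1a the median was 5.33%, with 0.896% in control 1 and 19.97% in control 3. Tmem123 to Birc3 (109 kb) and Yap1 to Cfap300 (111 kb) had 0% in all 8 libraries. Around Cep126 coverage resumed, at 11.2% to 58.4% of the gene.

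**Figure D1:**
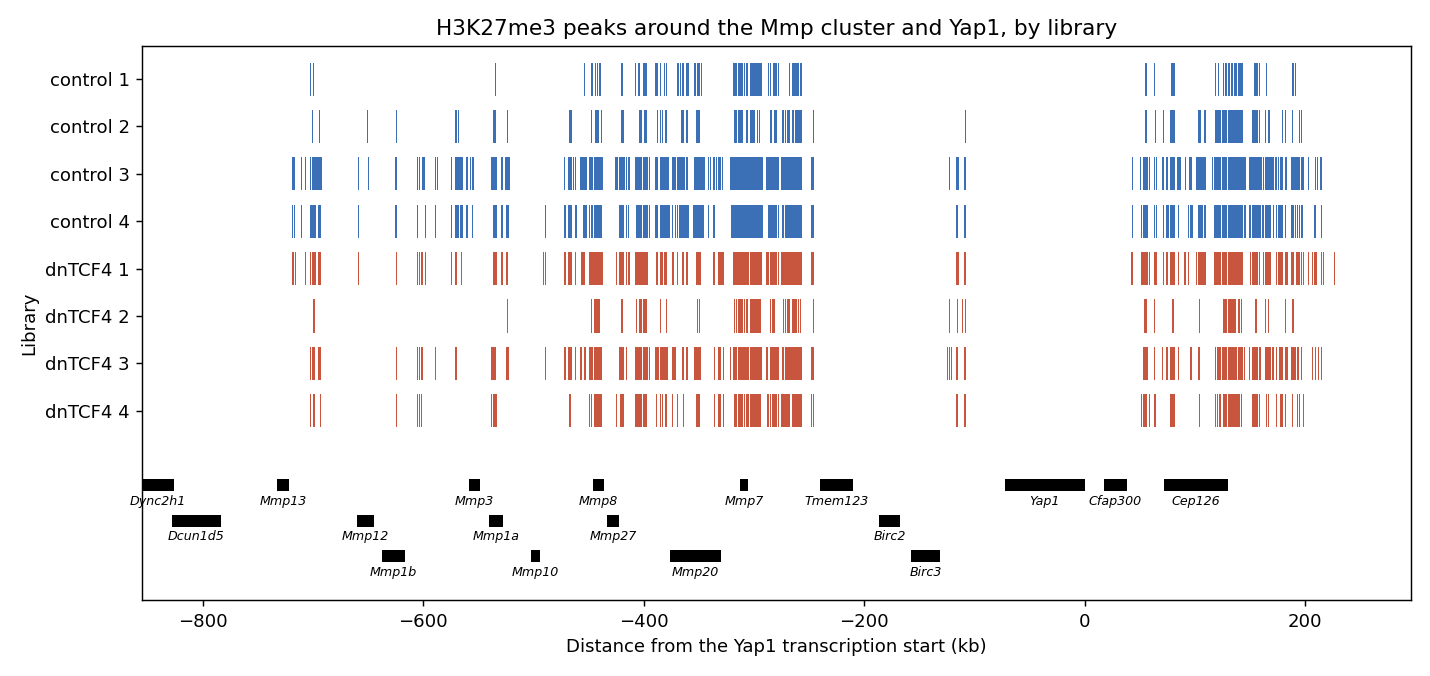
Peaks of the 8 libraries (bars; blue control, red dnTCF4) by distance from the Yap1 transcription start in kb, with the 18 protein-coding genes below in black. In all 8 rows Tmem123, Birc2, Birc3, Yap1 and Cfap300 lie in gaps, and peaks crowd between Mmp8 and Tmem123.

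The flanks of the block were empty over long distances. On the left, control 3 alone had a peak between the chromosome start and the block, and it ended at 4415507, 2.87 Mb before the first block peak. On the right the nearest peak was 1.19 Mb away in control 3, 4.99 Mb in control 4, 4.96 Mb in dnTCF4 1, 23.3 Mb in dnTCF4 3 and 23.4 Mb in dnTCF4 4. Control 1, control 2 and dnTCF4 2 had 0 other peaks on chromosome 9. Dync2h1, a motor protein of cilia, and Dcun1d5, at the left bound, had 0% of their span inside the block under a peak in every library. The position of the first block peak ran from 7283822 (control 3) to 7305042 (dnTCF4 2) and the last peak ended between 8194049 (dnTCF4 2) and 8231118 (dnTCF4 1).

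Among the proteases, the matrilysin gene Mmp7 (7692090 to 7699585, plus strand), a known target of beta-catenin signalling, was the most fully covered. Peaks covered 71.7%, 71.6%, 100% and 100% of it in control libraries 1 to 4. In dnTCF4 libraries 1 to 4 the values were 100%, 66.7%, 100% and 78.6%. The lowest share was in dnTCF4 2, and the groups overlapped. A single peak lay across its start in each library, 16515 bp wide in control 3 and 4129 bp wide in control 1. The fold enrichment of that peak, the authors' ratio of signal to background, was 1.85 (control 4) to 2.36 (dnTCF4 4).

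Mmp8 (7558429 to 7568486), the neutrophil collagenase, came next. Its covered share was 33.5%, 46.6%, 82.8% and 64.2% in control libraries 1 to 4. The 4 dnTCF4 libraries had 91.3%, 54.2%, 78.7% and 76.3%. The means were 56.8 ± 21.5% and 75.1 ± 15.4% (SD, n = 4 each), and the ranges overlapped. A peak lay on the start itself in control 3, control 4, dnTCF4 1 and dnTCF4 3 and within 0.694 kb of it in the others.

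Mmp1a (7464141 to 7476869), an interstitial collagenase, and Mmp20 (7628231 to 7674968), a protease of tooth enamel, were covered in part in all libraries. Mmp1a had 10.9%, 20.6%, 54.0% and 48.4% in control and 44.6%, 6.51%, 35.2% and 35.1% in dnTCF4 libraries 1 to 4. Its start had no peak within 2 kb in any library, the nearest lying 2.19 to 5.24 kb away. Mmp20 had 24.1%, 21.6%, 65.6% and 52.9% in control and 37.5%, 7.56%, 38.1% and 22.7% in dnTCF4 libraries 1 to 4. For both genes the lowest value was in dnTCF4 2, the shortest list, and the highest in control 3, the longest.

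The remaining Mmp genes carried little or nothing. Mmp1b, a second collagenase gene, had a peak in 6 libraries and at most 8.36% covered. Mmp12, the macrophage elastase, had one in 4 libraries and at most 16.8%, and Mmp27 in 4 libraries and at most 26.0%. Mmp3, a stromelysin, had a peak in control 3 (23.4%) and control 4 (4.30%) and in 0 dnTCF4 libraries. Mmp10, the other stromelysin, and Mmp13, a collagenase, had 0 peaks in any library. The uncovered run around Mmp10 was 17.3 kb long in dnTCF4 1 and 80.2 kb in control 1.

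The apoptosis inhibitors and their neighbour Tmem123, which encodes a membrane protein, lay in a gap whose left edge was nearly the same in most libraries. The last peak before Tmem123 ended at 7758702, 7758850 and 7758730 in control libraries 2 to 4. In dnTCF4 libraries 2 to 4 it ended at 7758642, 7758692 and 7758733. The exceptions were control 1 (7747865) and dnTCF4 1 (7760400). The edge stood 3.68 to 16.2 kb from the start of Tmem123 (median 5.36 kb). The gap itself was 119 to 130 kb long in 7 libraries. In control 1 it ran on through Yap1 for 300.2 kb.

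A short covered island separated the Birc genes from Yap1 in 7 of 8 libraries. It held 2 to 6 peaks, covered 1.16 to 6.04 kb, and ended at positions within 260 bp of each other, from 7896492 in control 3 to 7896752 in dnTCF4 3. It began 4.43 to 15.4 kb beyond the end of Birc3, on the side of that gene's start, and ended 35.2 to 35.5 kb from the far end of Yap1, which is read from the minus strand. Control 1 had 0 peaks in the island. The highest fold among its peaks was 1.51 in control 3 and 2.45 in dnTCF4 2.

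Yap1 (7931999 to 8004638) and Cfap300, a gene of cilia and flagella, lay in the second gap. In the 7 libraries with an island it was 149 to 151 kb long. The next peak started at 8048026, 8048033, 8047369 and 8047375 in control libraries 1 to 4. In dnTCF4 libraries 1 to 4 it started at 8046109, 8047940, 8046113 and 8046125. In dnTCF4 1, 3 and 4 it thus lay closer to Cfap300 than in any control library, while dnTCF4 2 fell among the control positions, so the groups overlapped. No test was run on these positions, which were singled out after their values were seen.

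**Figure D2:**
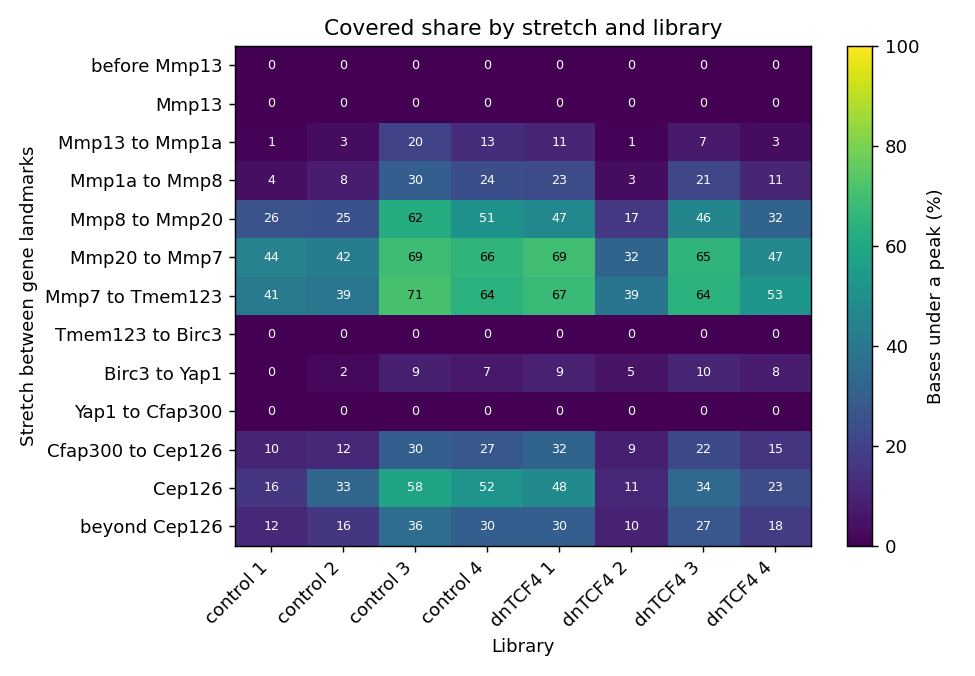
Percent of bases under a peak (colour and number) in 13 stretches between gene landmarks (rows, in chromosome order) and 8 libraries (columns). The rows for Tmem123 to Birc3 and Yap1 to Cfap300 are 0 in every column, and the densest rows are those around Mmp7.

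Cep126 (8076460 to 8134479, minus strand), which encodes a protein of the centrosome and cilium base, was the only protein-coding gene besides the Mmp genes with a peak. Its covered share was 15.9%, 33.1%, 58.4% and 51.9% in control libraries 1 to 4. The 4 dnTCF4 libraries had 47.7%, 11.2%, 34.3% and 23.4%. The control mean was 39.8 ± 19.2% and the dnTCF4 mean 29.1 ± 15.6% (SD, n = 4 each), and the ranges overlapped.

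The start of Cep126 stood in a narrow uncovered notch with a peak on each side in all 8 libraries. The notch was 875, 853, 753 and 709 bp long in control libraries 1 to 4. In dnTCF4 libraries 1 to 4 it was 711, 843, 755 and 755 bp. Its edge inside the gene lay 536 to 644 bp from the start and its outer edge 145 to 259 bp from it, so that the edges varied by 108 and 114 bp. The CG-rich sequence printed above lies at this notch, and its outermost bases reach under the upstream peak in all libraries but control 1. A short gap between peaks in all 8 libraries was not particular to this start. Just beyond Mmp7, peaks ended at 7699308 (dnTCF4 2) to 7699762 (control 3). They resumed at 7700503 (control 3) to 7700965 (dnTCF4 2). The median gap between neighbouring block peaks was 1540 bp (control 1) to 3870 bp (dnTCF4 2).

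The peak on the gene side of the Cep126 notch was among the highest of the block by fold. It had a fold of 2.34, 2.60, 2.64 and 2.69 in control libraries 1 to 4. The dnTCF4 libraries had 3.09, 2.51, 2.58 and 2.65. It ranked at the top of the block's peaks by fold in 7 libraries, and in control 1 it was next to the upstream peak. The upstream peak had 2.51, 2.29, 2.21 and 2.18 in control and 2.26, 2.47, 2.26 and 2.43 in dnTCF4 libraries 1 to 4. Its rank by fold was 1, 6, 2 and 2 in control and 2, 2, 4 and 3 in dnTCF4 libraries 1 to 4. The median fold of all block peaks was 1.46 to 2.04, and both peaks stood above it in every library. By deposited p the peak inside the gene led the block in 6 libraries, the exceptions being control 1, led by the upstream peak, and dnTCF4 3, led by a peak at 7603838 to 7608541.

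**Figure D3:**
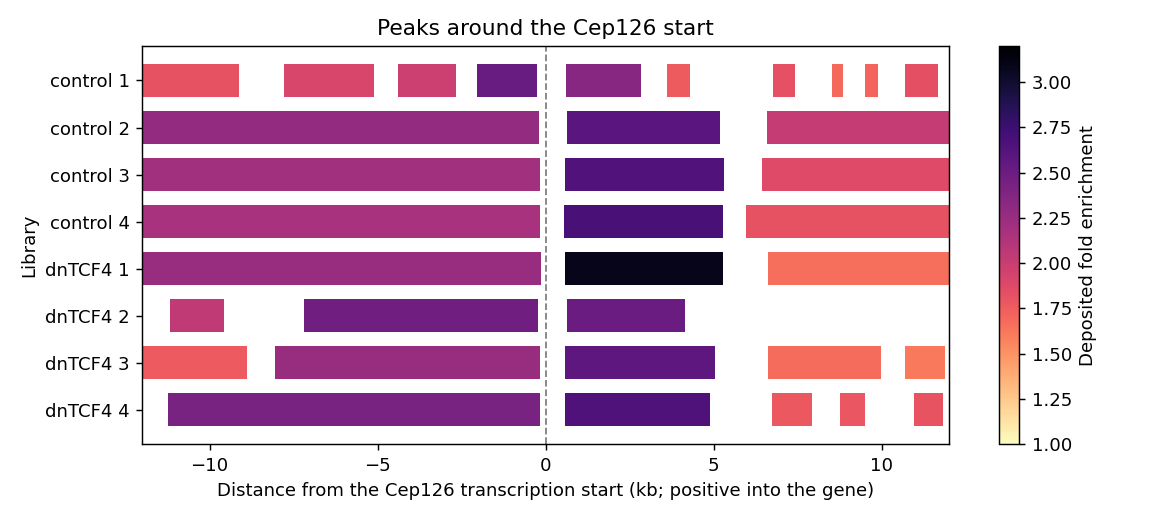
Peaks within 12 kb of the Cep126 transcription start (dashed line) in the 8 libraries, by distance in kb with positive values inside the gene, coloured by deposited fold enrichment. In all 8 rows the start lies in an uncovered notch of 709 to 875 bp, and the peak inside the gene beside it has a fold of 2.34 to 3.09.

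Counted over genes, the block stood out by how many libraries shared its peaks. A peak touched the span of 5 of the 18 genes in all 8 libraries (Mmp1a, Mmp8, Mmp20, Mmp7 and Cep126). Over all 21631 protein-coding genes 17 (0.0786%) were so touched, these 5 included. In any library a peak touched 9 of the 18, against 17.8%. A peak lay within 2 kb of the start in all 8 libraries for 3 of the 18 (Mmp7, Mmp8 and Cep126). These were the only 3 (0.0174%) among 17274 genes with a known start. In any library such a peak was found for 6 of the 18, against 11.9%. The block was chosen for such peaks, so these counts describe it and test nothing.

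Single bases were shared as well. In the block, 55.7 kb were covered in all 8 libraries, 16.4% of the 340 kb covered in any. Everywhere else 5.63 kb were, or 0.00938% of covered bases. Of 120 windows of 5 kb with a peak in the block, 44 had one in all 8 libraries. Over the genome 79 of 49051 such windows (0.161%) did, these 44 included. The longest runs common to all libraries were 7700965 to 7705792 just beyond Mmp7, 4828 bp long, and 7690351 to 7694479 across the Mmp7 start, 4129 bp long. Others lay at 7604509 to 7607282, between Mmp27 and Mmp20, and at 8131610 to 8133802 inside Cep126.

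Coverage in the other libraries lay largely within that of the longest list. Control 3 covered 99.5% of the block bases of control 1, 98.9% of those of control 2 and 98.5% of those of dnTCF4 2. In the other direction dnTCF4 2 covered 27.7% of those of control 3. Between most of the shorter lists less was shared. Of the block bases of dnTCF4 2, 74.4% were covered in control 1 and 81.0% in control 2. Of those of control 1, 75.3% were covered in control 2. In dnTCF4 4, 81.0% of those of control 1 and 80.5% of those of control 2 were covered. The exception was dnTCF4 2, with 96.1% of its block bases covered in dnTCF4 4. Covered length in the block had the same order as list length in all 8 libraries. Lists of 191, 426, 738 and 1838 peaks covered 86.3, 104, 129 and 153 kb, and lists of 4885, 21492, 22745 and 54070 peaks covered 222, 249.6, 255.9 and 307 kb. The part of list length in the differences between libraries was not tested.

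The block peaks were wide and low. Widths ran from 153 to 18698 bp, with a median per library of 796 (dnTCF4 4) to 1415 bp (control 3), against 254 to 595 bp for all other peaks of the same libraries. Fold ran from 1.33 to 3.09 and was under 2 for 579 of the 707 peaks. The median fold was 1.89, 1.97, 1.46 and 1.54 in control libraries 1 to 4, where other peaks had 4.53, 4.64, 3.01 and 3.39. In dnTCF4 libraries 1 to 4 it was 1.59, 2.04, 1.71 and 1.87, where other peaks had 3.50, 4.99, 4.05 and 4.50. In 7 libraries 0 other peaks had a fold under the block's median, and in control 3 there was 1. The highest −log10 q was nevertheless in the block in every library, at 7.68 (dnTCF4 2) to 37.0 (control 3), against 7.07 to 18.1 elsewhere.

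Fold and p together can be turned into a background. If fold is taken as (fragments + 1) / (background + 1) and p as the upper tail of a Poisson distribution, each peak implies a background. It is a nominal number of fragments expected by chance, since a list gives a single fold and p per peak, whatever its width. Where the relation had a lower and an upper solution, the upper was taken. The median background in the block was 40.2, 38.9, 107 and 83.9 in control libraries 1 to 4 and 60.1, 28.9, 51.4 and 36.1 in dnTCF4 libraries 1 to 4. For other peaks of the same libraries it was 0.865 to 2.22. The ratio of these medians was 31.3 (dnTCF4 2) to 49.5 (dnTCF4 1), and all 8 libraries went the same way. Outside the block no value could be found for part of the peaks, so that the median there rests on 45 of 129 peaks in dnTCF4 2 and 592 of 1747 in dnTCF4 4. The background is computed from the same fold and p, so low fold and high background are not separate findings. These values describe the peaks that chose the block and carry no test. Copy number was not measured in the peak lists, and its part in coverage, fold and background was not tested.

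**Figure D4:**
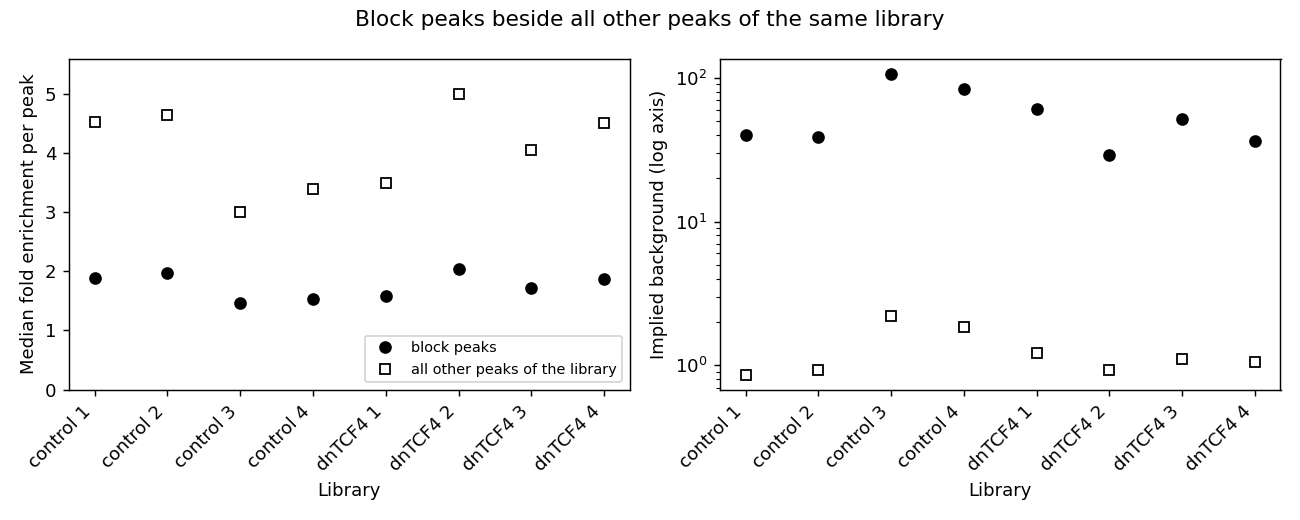
Median deposited fold enrichment (left) and median implied background in fragments (right, log axis) of block peaks (filled circles) and of all other peaks (open squares) in the 8 libraries. Block peaks lie lower in fold (1.46 to 2.04 against 3.01 to 4.99) and higher in background (28.9 to 107 against 0.865 to 2.22) in all 8 libraries.

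Coverage and median fold were compared between the Mmp side and the Cep126 side of the block. The former was taken from 7283822 to the end of Mmp7 (7699585) and the latter from the far end of Yap1 (7931999) to 8231118. The outer bounds are the outermost peak edges of these same libraries, so the p-values below hold for these bounds only. These bounds bear on the values: the Cep126 side holds the 111 kb of Yap1 to Cfap300, at 0% in all libraries, and the Mmp side leaves out the dense stretch between Mmp7 and Tmem123. The Mmp side had between 7.81% (dnTCF4 2) and 36.8% (control 3) of bases covered and the Cep126 side between 8.62% and 34.6% in the same libraries. The mean difference was -0.50 percentage points, with the Mmp side higher in 3 of 8 libraries (exact sign-flip permutation test over 8 libraries, two-sided p = 0.430). With −log10 q of at least 2 it was -1.51 (higher in 1 of 8, exact permutation p = 0.0859), without control 3 it was -0.89 and without control 2 it was -0.075. Median fold differed by -0.014 (higher on the Mmp side in 3 of 8 libraries, exact permutation p = 0.539). Averaged over covered bases, fold was lower on the Mmp side by -0.10, with 7 of 8 libraries in that direction and 1 in the other (exact permutation p = 0.0156). This was an alternative setting, and its p was not adjusted. Wide peaks weigh more in such an average. The Cep126 side holds the peaks beside the Cep126 start, whose fold was above the block median in every library. Their part in the difference was not tested.

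The comparison of control with dnTCF4 libraries asks whether blocking beta-catenin/TCF activity changed the mark over the block. The number of block peaks was 86.8 ± 20.5 for control against 90.0 ± 19.9 for dnTCF4 (SD, n = 4 each; two-sided exact permutation test over 70 assignments, p = 0.943, adjusted p = 0.943). They covered 104, 129, 307 and 255.9 kb in control libraries 1 to 4 and 249.6, 86.3, 222 and 153 kb in dnTCF4 libraries 1 to 4. The means were 199 ± 98.0 and 178 ± 73.3 kb (SD, n = 4 each; exact permutation p = 0.686, adjusted p = 0.914). Median peak width was 1149 ± 200 and 1003 ± 241 bp (SD, n = 4 each; exact permutation p = 0.400, adjusted p = 0.914). Median fold was 1.71 ± 0.253 and 1.80 ± 0.196 (SD, n = 4 each; exact permutation p = 0.571, adjusted p = 0.914). All 4 differences were smaller than the spread between libraries, and the smallest p this design allows is 0.0286. Fold comes from lists called separately and moves with how much each library detected.

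**Figure D5:**
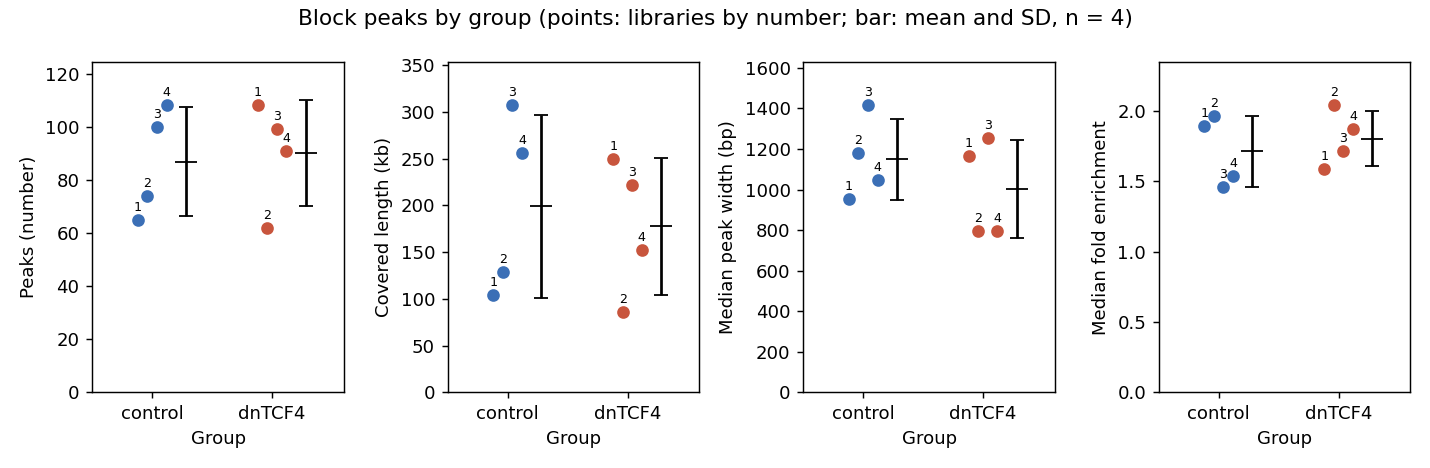
Number of block peaks, covered length, median width and median fold in control (blue) and dnTCF4 (red) libraries, each point labelled with its library number, with the mean and SD (n = 4) in black. The groups overlap in all 4 panels.

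No 5 kb window of the block set the groups apart when all 8 libraries were used. Of its 120 windows of 5 kb with a peak, 0 had a covered share higher in all control than in all dnTCF4 libraries, against 0.00408% of such windows over the genome, and 0 the other way, against 0%. By the exact permutation test 0 block windows had an unadjusted p under 0.05 and 0 an adjusted p under 0.05, the lowest adjusted p being 1. The adjusted count says nothing about the block, since such a value was in practice out of reach. Most of the 49051 genome windows would have to share the smallest possible p, 0.0286. Without control 3, 5 block windows were higher in dnTCF4 libraries, where 0.0410% of genome windows did not overlap in either direction. Without control 2, 3 were higher in control, against 0.0306%. In windows of 2 kb, 3 of 249 (1.20%) did not overlap between groups, against 0.00626% over the genome. These genome shares are not rates due to chance in the block. A window separates the groups only with a peak in every library of a group, and control 1 and dnTCF4 2 had 361 and 129 peaks outside the block. With the 70 assignments equally likely, chance separates at most 2.86% of windows, and more with a library left out. With the 5 libraries of at least 1000 peaks, 47 of at most 120 block windows of 5 kb did not overlap, against 23.6% of genome windows. Those 5 libraries allow only 10 assignments, so the 2.86% does not apply there and chance can separate a larger share. Of these 47, 44 were higher in control, whose lists here are longer than those of dnTCF4, and 3 in dnTCF4 libraries. Among the 9 genes with a peak, 0 had covered shares that did not overlap between groups, against 0.0259% of 3854 genes. The Jaccard index of covered bases in the block, the shared over the joint length of a pair, averaged 0.508 within groups and 0.514 between them (difference -0.0064, one-sided exact permutation p = 0.457). The overlap coefficient, shared over shorter length, averaged 0.950 within and 0.898 between groups (one-sided exact permutation p = 0.0286, the smallest 70 assignments give), and the difference in Jaccard index turned positive without control 1, control 2 or control 3 (0.0053, 0.0087 and 0.00012).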

How the data were processed

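H3K27me3 libraries (4 control, 4 dnTCF4) were used, while 8 IgG libraries are not analysed here. Fixation in 1% formaldehyde came first, per the labels' protocols, and chromatin was precipitated with 4 micrograms of antibody and tagmented on beads. MACS2 2.1.2, bedtools 2.28.0, SAMtools 1.2, Picard 2.20.2, Bowtie2 2.3.4.1, cutadapt and Trim Galore are named, with build mm10, per the submitters' processing notes. Their options: not given in the sources used here. Each deposited list has 9 columns and no header, with a score, a fold enrichment (the authors' ratio per peak) and −log10 p and q values, the lowest deposited −log10 q being 1.01. Peaks were called per library, as the deposited peak names show. Peak lists hold no read counts, so depth is unknown, and where no peak was called the mark may still be present.

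Genes, starts and promoter sequences came from RefSeq GRCm38.p6; 17274 of 21631 protein-coding genes had a start. Covered shares count bases under a peak. Covered stretches join peaks at gaps up to 5 kb. All protein-coding genes reaching into the block were accounted for, and the Mmp genes, Tmem123, Birc2, Birc3, Yap1 and Cep126 were given by library. Groups were compared by exact permutation tests, with Benjamini-Hochberg adjustment over the 4 summaries or over all genome windows. The notch at Cep126 was found after the data were seen. The fold and Poisson relation used for the implied background is an assumption that was not tested. The members and gene lists were chosen with earlier results of these data known. Alternatives were a stricter q, merged peaks, narrower bounds, other window sizes, another index, each library left out and a replicate block. Python 3.11.15, NumPy 2.4.6, pandas 2.3.3 and SciPy 1.17.1 were used.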

Additional observations from a re-analysis of the deposited data

Results flagged for a closer look

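Of 36 sets of 4 libraries checked for a library far from the other 3, 6 were picked out. Chance picks about 1 in 20 of independent sets with normally spread values. For Mmp12 and Mmp27 a single value stood against zeros, which is picked out whatever its size, so the chance rate does not apply to them. The others picked out are peak positions, which lie close together in most libraries and jump where a peak is called or missed. The rate does not hold for these either, so the 6 cannot be read as an excess over chance. The first block peak began at 7285450 in dnTCF4 1 and between 7302087 and 7305042 in the other dnTCF4 libraries. Mmp12 had 3.02% of its span covered in dnTCF4 1 and 0% in the other dnTCF4 libraries. Mmp27 had 26.0% covered in control 3 and 0% in the other control libraries. The edge before Tmem123 lay at 7747865 in control 1, against 7758702 to 7758850 in the other control libraries, and at 7760400 in dnTCF4 1, against 7758642 to 7758733 in the other dnTCF4 libraries. The first peak beyond Cfap300 began at 8047940 in dnTCF4 2, against 8046109 to 8046125 in the other dnTCF4 libraries.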

How the results depend on the processing

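The 4 group differences (dnTCF4 minus control) passed the test in no alternative. With one library left out at a time they ran from -4.00 to 12.6 peaks, from -53.0 to 14.7 kb covered, from -230 to -57.6 bp in median width and from 0.0050 to 0.175 in median fold. The sign of the peak number turned without control 1, control 2 or dnTCF4 1, and that of covered length without control 3 or dnTCF4 2. With −log10 q of at least 2 the differences were -7.00 peaks and 134 bp. With the 5 libraries of at least 1000 peaks, chosen after seeing the data, the differences were -4.67 peaks, -73.4 kb covered (-21.4 with all 8) and 0.227 in median fold (0.090 with all 8). With the replicate block, pairing equal numbers, exact sign-flip p was 1 for peak number (difference 3.25), 0.75 for covered length (-21.4 kb), 0.375 for width (-146 bp) and 0.500 for fold (0.090), where 4 pairs allow no p under 0.125, and no call changed. Deviations of same-numbered libraries over block windows correlated at -0.560, 0.322, 0.243 and -0.311 for numbers 1 to 4. Pairs with unequal numbers ran from -0.513 (control 3 with dnTCF4 2) to 0.583 (control 1 with dnTCF4 2). Whether equal numbers were prepared together cannot be told from these values. The within minus between difference of the Jaccard index ran from -0.0318 to 0.0087 with one library left out, and was 0.0038 with the stricter q, 0.0153 with 62 peaks per library, 0.0536 with the 5 longer lists and 0.0518 for the overlap coefficient. The Mmp side minus Cep126 side covered share ran from -0.89 to -0.075 percentage points with one library left out, and was -1.51 with the stricter q and -0.031 with the 5 longer lists. The fold difference of the sides ran from -0.024 to 0.0015 with one library left out (positive without control 2), and was 0.011 with the stricter q, 0.0046 with the 5 longer lists and -0.10 over covered bases. Windows whose groups did not overlap numbered 0 to 5 with one library left out (5 without control 3, against 0.0410% of genome windows; 3 without control 2, against 0.0306%; 3 without dnTCF4 2, against 0.0428%; 2 without dnTCF4 3, against 0.0102%; 1 without control 1, against 0.0917%; 1 without dnTCF4 1, against 0.0296%; 0 without control 4 or dnTCF4 4), 3 of 249 at 2 kb, against 0.00626%, and 47 with the 5 longer lists, where 23.6% of genome windows did so. With the short lists in, few windows outside the block had a peak in every library of a group. The low genome shares are thus not rates due to chance in the block. Of the 47 windows, 44 were higher in control and 3 in dnTCF4 libraries. Merging at 1 or 10 kb in place of 5 kb gave 66.1 and 12.8 covered stretches per library in place of 25.0. Depth is unknown and limits all comparisons of coverage.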

Other observations

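Genes without a protein product also carried peaks in the block. Cbx3-ps8 (7723038 to 7724764), a pseudogene between Mmp7 and Tmem123, lay wholly under a peak in 7 libraries and to 56.8% in dnTCF4 2. Gm19324 (8142541 to 8181112), a pseudogene upstream of Cep126, was covered to 16.8% (dnTCF4 2) to 79.0% (control 3). The long noncoding RNA genes AV064505 and Gm31751 were covered to 22.2% to 62.8% and 24.0% to 54.7%, but they overlap Mmp genes, so their values are not separate. 1700128F08Rik, at the right end, had peaks in dnTCF4 1 (4.65%) and dnTCF4 3 (3.61%) and 0% in the other 6 libraries.

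Outside the block, 3 peaks had an implied background above that of the lowest member in their library, though all were under the block's median there (107 in control 3 and 51.4 in dnTCF4 3). They lay on chromosome 11, at 3145710 to 3146720 and 3156088 to 3156439 in control 3 (62.9 and 81.4 fragments) and at 3145716 to 3146636 in dnTCF4 3 (30.2 fragments). Their folds were 1.61, 1.41 and 1.99.

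At 2 kb, 3 windows of the block had covered shares that did not overlap between groups. The window at 7604001 to 7606000, between Mmp27 and Mmp20, had 74.6% to 91.8% in control and 100% in all 4 dnTCF4 libraries. The window at 7638001 to 7640000, inside Mmp20, had 56.0% to 100% in control and 27.4% to 52.9% in dnTCF4 libraries. The window at 8150001 to 8152000, upstream of Cep126, had 6.55% to 25.6% in control and 0% to 0.600% in dnTCF4 libraries. They made up 1.20% of the block's 249 windows of that size, against 0.00626% over the genome. With the short lists in, few windows outside the block had a peak in every library of a group. The genome share is thus not a rate due to chance in the block. With equal weight on the 70 assignments, chance separates at most 2.86% of windows, and 1.20% does not exceed that.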
